A study of Mus musculus with 15 samples.

Results

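Zfp900 to Zfp999 are mouse zinc finger genes that carry the symbol Zfp and a number of 3 digits that starts with 9. The gene annotation used for names (GENCODE M21) holds 63 such protein-coding genes, and 62 of them are listed among the 28785 gene IDs of the count files. Zfp935, the remaining gene, is not analysed here. The rule that picks the genes uses the symbol alone and not their counts, but it was set with earlier results of these data known. They were followed in single oocytes of 2 stages, sequenced with MATQ-seq, a method that amplifies total RNA from 1 cell. The germinal vesicle (GV) group held 9 oocytes and consists of full-size oocytes still in prophase of meiosis, before ovulation. The MII group held 6 oocytes and consists of ovulated eggs that wait in the second meiotic metaphase for fertilization. Per the labels' protocols, all oocytes came from superovulated female mice of about 6 to 8 weeks. All mice received pregnant mare serum gonadotropin (7 IU), and GV oocytes were taken 44 h later. For MII oocytes a further injection of human chorionic gonadotropin (7 IU) was given about 48 h after the first, and the eggs were collected 20 h after it from cumulus-oocyte complexes treated with hyaluronidase. The labels name no strain, genotype or individual mouse. The oocytes of a stage were therefore treated as cells of 1 sample, and no test was made. Differences are described by their size beside the spread between oocytes.

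Most proteins of this kind consist of a KRAB domain followed by a row of C2H2 zinc fingers. Each finger is a short loop held by a zinc ion between a pair of cysteines and a pair of histidines, and the residues on its helix read the bases of DNA. The KRAB domain binds TRIM28 (KAP1), which brings the histone methyltransferase SETDB1, HP1 proteins and the NuRD complex to the bound site. Many KRAB zinc fingers silence endogenous retroviruses, and some, such as ZFP57, protect methylation at imprinted genes that the egg passes on to the embryo. The genes multiply by local duplication, so that many lie in clusters of near copies, and the clusters differ between rodents and other mammals.

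In the GENCODE M21 coding sequences, translated for this purpose, 60 of the 62 genes encoded fingers with the classical spacing of cysteines and histidines. These 60 proteins held 2 to 21 fingers, with a median of 11. Some annotated coding sequences, such as the 940 bases of Zfp993 (2 fingers), are not a whole number of codons and may be incomplete. A KRAB-like stretch near the start of the protein was found in 59 genes and was not found in Zfp956, Zfp957 and Zfp974. Zfp957 and Zfp972 had no match to the finger pattern. The first finger of 4 of the genes with the most counts per kilobase is shown here as coding DNA, to show the unit from which the family is built. Each run covers 84 bases, 1 finger with its linker, and the capitals mark the codons of the zinc-binding cysteines and histidines.
Zfp932: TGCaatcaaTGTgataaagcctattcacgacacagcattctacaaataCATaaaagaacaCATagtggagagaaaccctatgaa
Zfp961: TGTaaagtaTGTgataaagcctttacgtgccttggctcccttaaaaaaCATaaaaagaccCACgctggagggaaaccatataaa
Zfp951: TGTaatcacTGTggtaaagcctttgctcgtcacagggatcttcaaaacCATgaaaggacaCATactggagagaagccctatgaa
Zfp982: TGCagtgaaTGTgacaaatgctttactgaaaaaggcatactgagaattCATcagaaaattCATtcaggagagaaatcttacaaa

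How alike the copies of a cluster can be is shown by 5 genes of chromosome 4. Finger 3 of Zfp980 is the reference, chosen because it had the fewest differences from a finger of Zfp987. For each other gene the finger closest to this reference is shown. These are finger 5 of Zfp987, finger 3 of Zfp988, finger 9 of Zfp989 and finger 13 of Zfp990. They are best matches among all fingers of a gene, and the capitals mark the bases that differ from the reference over 84 bases. The number of differing bases was 5 in Zfp987, 7 in Zfp988, 5 in Zfp989 and 10 in Zfp990. Reads that fall in such stretches can be assigned to the wrong copy, and the authors' treatment of such reads is not stated in the labels.
Zfp980: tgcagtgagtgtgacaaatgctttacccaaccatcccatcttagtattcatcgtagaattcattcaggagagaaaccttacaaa
Zfp987: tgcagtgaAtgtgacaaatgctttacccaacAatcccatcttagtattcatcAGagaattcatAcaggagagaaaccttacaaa
Zfp988: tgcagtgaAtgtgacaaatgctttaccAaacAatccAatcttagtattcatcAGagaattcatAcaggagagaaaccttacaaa
Zfp989: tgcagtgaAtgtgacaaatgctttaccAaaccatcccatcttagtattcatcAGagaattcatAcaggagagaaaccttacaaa
Zfp990: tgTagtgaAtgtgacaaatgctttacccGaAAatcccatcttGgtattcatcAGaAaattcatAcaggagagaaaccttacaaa

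Copies on chromosome 4 also share a stretch of promoter sequence. RefSeq promoters (GRCm38.p6) were at hand for 52 of the 62 genes, 59 promoters in all. In the 250 bases before the start, TAATTA, the core of the sites of many homeodomain proteins, occurred in 14 of the 59 promoters (23.7%), against 4.84% of 32851 promoters of all genes. It reads the same on both strands. It occurred in 8 of 12 promoters of the chromosome 4 cluster, 4 of 10 of the chromosome 17 cluster, 2 of 20 promoters of genes that lie alone, and 0 of 9 promoters of the chromosome 2 cluster. In the 8 promoters of chromosome 4 the match began 106 to 156 bases before the start. Over 36 bases centred on it, 7 of these promoters matched that of Zfp979 at 27 to 34 positions, so the matches stand in a shared stretch of sequence and are not independent. The 6 matches of the other genes had 13 to 20 bases in common with Zfp979. The promoters of Zfp979 (chr4:147642509-147642758) and Zfp984 (chr4:147809789-147810038) show the shared stretch, and that of Zfp957 (chr14:79247368-79247617) is shown because Zfp957 had the most counts of the family. All 3 lie on the minus strand and are written 5′ to 3′ up to the base before the start, with TAATTA in capitals. In Zfp984 the marked match runs on into another, overlapping TAATTA whose last bases are left in lower case.
Zfp979: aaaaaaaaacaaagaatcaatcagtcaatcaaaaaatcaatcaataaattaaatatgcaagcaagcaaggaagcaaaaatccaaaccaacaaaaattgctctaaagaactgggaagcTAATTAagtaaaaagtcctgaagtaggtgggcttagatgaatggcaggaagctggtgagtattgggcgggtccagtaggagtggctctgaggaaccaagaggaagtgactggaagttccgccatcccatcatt
Zfp984: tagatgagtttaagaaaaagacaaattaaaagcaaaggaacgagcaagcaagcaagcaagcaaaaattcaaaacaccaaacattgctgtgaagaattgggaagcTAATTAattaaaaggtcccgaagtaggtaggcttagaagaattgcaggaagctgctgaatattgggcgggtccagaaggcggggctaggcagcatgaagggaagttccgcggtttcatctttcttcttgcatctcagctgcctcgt
Zfp957: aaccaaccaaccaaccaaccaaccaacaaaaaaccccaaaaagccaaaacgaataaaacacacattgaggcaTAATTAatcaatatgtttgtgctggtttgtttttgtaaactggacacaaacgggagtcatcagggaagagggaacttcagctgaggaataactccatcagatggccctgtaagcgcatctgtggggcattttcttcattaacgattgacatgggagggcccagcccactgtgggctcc

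Another 3 motifs were searched on both strands. TAATTG, another homeodomain core, was in 1 of 59 promoters (1.69%) against 7.17% of all. The E-box CANNTG, the kind of site that the oocyte factor FIGLA binds, was in 43 (72.9%) against 66.2%. The TATA box TATAAA was in 0 of 59 against 12.4%. The promoters held a median of 6 CG pairs, as did all promoters. A match in a window of letters is a description and does not show that a factor binds there.

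Counts were scaled to CPM, counts divided by the oocyte's total and scaled to a common size, with totals that leave out 1 feature with no symbol (ENSMUSG00000119584). That feature took 15.7% to 61.2% of the counts in MII oocytes, 3.43% to 11.2% in GV7 to GV9 and 0 in GV1 to GV6. Without it the totals were 3275485 to 7103063 counts in GV oocytes and 536101 to 1277878 in MII oocytes. The files of GV1 to GV6, of GV7 to GV9 and of the MII oocytes carry 3 kinds of column header, so stage and kind of file cannot be told apart. Oocyte markers such as Gdf9 and Zp3 were detected in every oocyte, while Figla was found in 4 and Ddx4 in 5 of the 6 MII oocytes. The summed level of 13 such markers was 7431 to 29322 CPM in GV and 7788 to 16147 CPM in MII. Pooled over a stage it was 20739.2 CPM in GV and 10542.5 CPM in MII. Relative to the median gene described below, 11 of the 13 markers were lower in MII and 2 were higher. Of 17 cumulus and granulosa markers, 16 are listed in the files. Their sum was 103 to 345 CPM in GV and 37.1 to 126 CPM in MII, and Inha, Inhba, Foxl2 and Amh had 0 counts in every MII oocyte. Nearly all of the MII sum came from Nr5a2 (85.5 CPM in GV, 50.7 in MII) and Cyp19a1 (17.4 and 25.3 CPM), both detected in all 6 MII oocytes. Of 10 blood and immune markers 8 are listed; they summed to 0.21 to 8.34 CPM in GV and 0 to 24.3 CPM in MII, mostly from Cd68, at 3.07 CPM in GV and 8.76 in MII, while Ptprc had 0 counts in GV and 1 in MII. The 6 oviduct markers summed to 0 to 11.5 CPM in GV and 0 to 0.78 CPM in MII, where Ovgp1 was at 0. The part of other cells in the results below was not tested. All levels are shares of the RNA counted in a cell, so a change in the amount of RNA per cell is not seen.

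The family was present in both stages at a similar summed level. The 62 genes together reached 707 CPM in GV (699 to 715, the 95% exact Poisson interval), and 556 CPM (537 to 575) in MII. Intervals here and below treat reads as independent and leave out the spread between oocytes. PCR reads are not independent molecules, so the intervals are likely too narrow even for counting error. Among GV oocytes the sum had a lowest value of 408, a median of 815 and a highest of 1044 CPM. Among MII oocytes it was 380, 543 and 871 CPM. The ranges overlapped over most of their length. The log2 ratio MII/GV of the sum was −0.06 relative to the median gene, with a spread between oocytes of 0.51. Here and below, ratios are taken after adding 0.5 count to each stage's sum and are given relative to the median of 10410 measured genes, that is, genes that reached 5 CPM in either stage. That median itself stood at −0.29 in CPM. The spread combines the SDs of 9 GV and 6 MII oocytes as the root of the sum of squares and is no error of a mean. These SDs are of log2(CPM + 1) in each oocyte, relative to the median measured gene of that oocyte, whereas the ratio comes from pooled counts. For genes of low level the added 1 CPM narrows the spread. Ratio and spread are then on unlike scales, and a ratio larger than its spread is not a measure of separation.

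All 62 listed genes had at least 1 count in some GV oocyte, and 50 had one in some MII oocyte. An oocyte showed 40 to 55 of the genes in GV, with a median of 48, and 24 to 38 in MII, with a median of 31.5. After thinning each oocyte to 536101 counts, the expected number was 27.8 to 40.2 in GV, with a median of 34.9, and 22.6 to 33 in MII, with a median of 27.6, and the ranges overlapped. A total of 17 genes were found in all 15 oocytes, and 13 had fewer than 20 counts over all of them. In the map of all listed genes the bright rows are few, and clusters on chromosomes 2 and 17 are mostly dark.

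**Figure D1:**
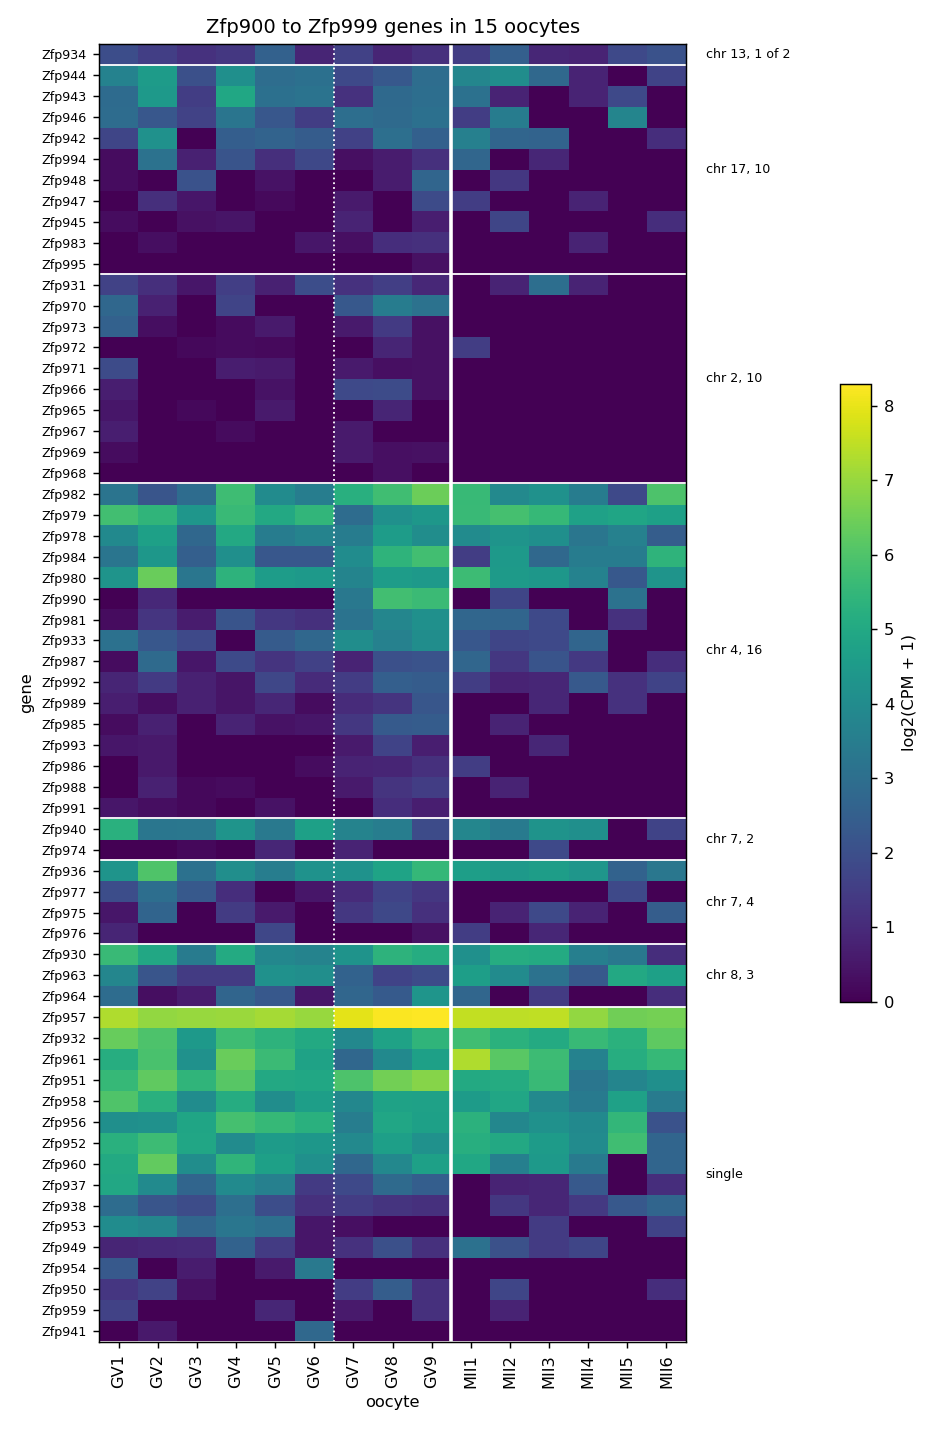
Level of each of the 62 listed genes (rows) in each oocyte (columns), as log2(CPM + 1), with genes grouped by neighbouring cluster and ordered within it by mean CPM per kilobase. The dotted line separates GV1 to GV6 from GV7 to GV9 and the solid line GV from MII; Zfp957 is the brightest row in both stages, and 8 of 10 genes of the chromosome 2 cluster have 0 counts in all 6 MII oocytes.

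The most abundant member, Zfp957, is not built like the rest of the family. It held 24.4% of the family's counts in GV and 25.5% in MII. Per kilobase of transcript its level was 62.8 CPM in GV and 51.6 CPM in MII, several times the next genes. Its protein had no KRAB-like stretch and no C2H2 match, and 0.259% of the 50-base windows of its transcript occurred in any other gene, so that shared reads bear little on its count. It stood at 123 CPM in the lowest, 143 in the median and 312 in the highest GV oocyte, and at 89.7, 150 and 183 CPM in MII. GV7 to GV9 were the 3 highest of all oocytes, at 248, 304 and 312 CPM, while GV1 to GV6 lay between 123 and 155 CPM, within the MII range. The log2 ratio MII/GV was 0.00 with a spread of 0.71.

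Zfp932, known to repress endogenous retroviruses together with its near copy Gm15446, had the next highest mean of the stages, at 16.2 CPM per kilobase in GV and 18.3 in MII. Its level was 13.5, 40.1 and 80.5 CPM (lowest, median and highest) in GV and 32.8, 42.7 and 74.6 CPM in MII, ranges that overlapped, and the log2 ratio was 0.46 with a spread of 0.74. Of its transcript windows, 52.3% also occur in Gm15446, so that its counts may hold reads of that gene. Zfp961, whose transcript windows occur in no other gene, stood at 13.4 CPM per kilobase in GV and 19.7 in MII. It varied more than 10-fold between oocytes within each stage, from 5.87 to 83.4 CPM in GV and from 11.8 to 159 CPM in MII. Its log2 ratio of 0.84 was smaller than its spread of 1.51. Its exons overlap those of Cyp4f18 on the opposite strand over 4.18% of their bases, and the strand use of the counting is not stated.

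Zfp951 was among the 8 most abundant genes per kilobase and had the larger share of its counts in GV. Its level was 29.5, 61.7 and 110 CPM in GV and 8.63, 24.1 and 48.4 CPM in MII. Every MII oocyte lay below the GV median, but the ranges overlapped, and the log2 ratio of −0.88 was within its spread of 1.05. Zfp979, a chromosome 4 gene with 3 fingers, had 6.63, 30.8 and 53.7 CPM in GV and 25.2, 37.0 and 57.1 CPM in MII, with a ratio of 0.57 and a spread of 0.96. Zfp982, also on chromosome 4, had 3.52, 14.9 and 85.2 CPM in GV and 2.56, 15.7 and 61.5 CPM in MII, and its ratio was 0.08 with a spread of 1.97. The neighbouring Zfp978 (ratio −0.02, spread 0.94) and Zfp958 on chromosome 8 (−0.34, spread 0.90) complete the 8 most abundant genes. None of these 8 was 2-fold apart between the stages with all GV oocytes pooled. Against GV7 to GV9 alone, the ratio was 1.02 for Zfp932, 2.08 for Zfp961 and 1.68 for Zfp979, and −1.53 for Zfp951 and −1.11 for Zfp982. On full totals Zfp932, Zfp961 and Zfp979 were below 0, at −0.49, −0.11 and −0.38.

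**Figure D2:**
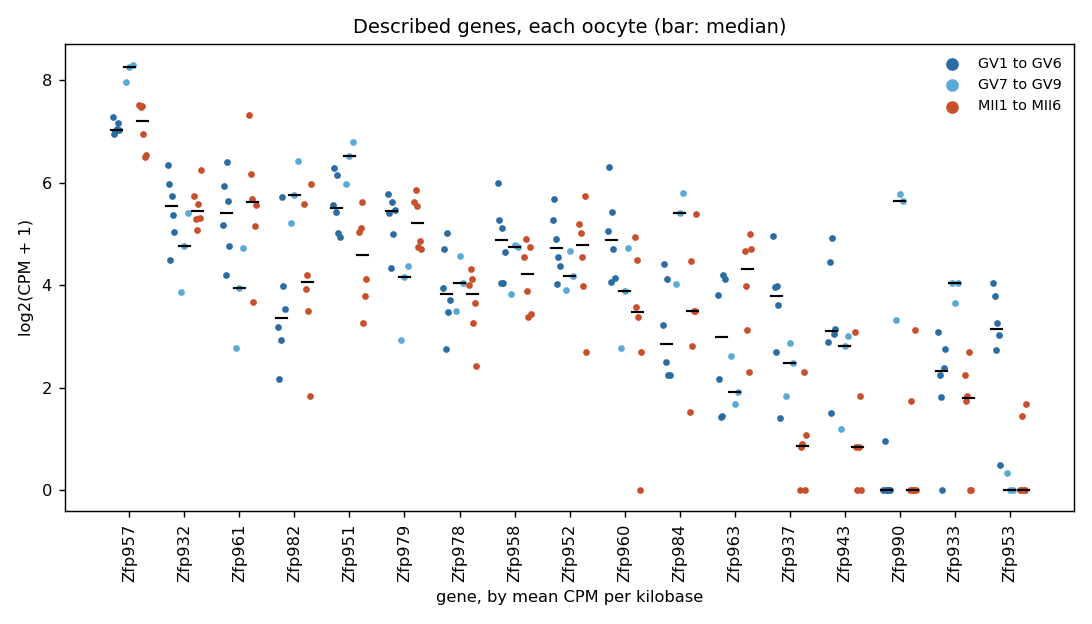
Level of the 17 described genes in each oocyte as log2(CPM + 1), ordered by mean CPM per kilobase, with GV1 to GV6, GV7 to GV9 and the 6 MII oocytes in separate columns and a bar at each median. The points of GV and MII oocytes overlap for all 17 genes. Zfp957, Zfp990, Zfp933 and Zfp953 separate the 2 sets of GV files, Zfp953 narrowly (0.41 CPM in GV6 against 0.26 CPM in GV7).

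Of the 62 listed genes, 23 were measured, 18 of them in both stages, 5 through their level in GV alone and 0 through MII alone. The 5 measured through GV alone could not be called 2-fold higher in MII. Among the 23 genes, 5 were at least 2-fold lower in MII relative to the median gene, against 15.8% of all measured genes, and 1 was at least 2-fold higher, against 12.9%. The 5 lower genes were those measured through GV alone. At 4-fold, 4 genes were lower, against 6.61% of all measured genes, and 0 were higher, against 2.51%. The median ratio of the 23 genes was −0.20 with a spread of 0.83, beside 0 for all measured genes by construction, −0.02 for all protein-coding genes and −0.18 for 177 measured genes of the other Zfp symbols. On totals that include the unnamed feature the counts were 14 lower and 0 higher, since the median gene itself then stood at −0.98. No member had all MII oocytes below or all above all GV oocytes, against 1.32% and 0.768% of all measured genes. The remaining 39 genes had under 5 CPM in both stages and are described by detection and by cluster.

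**Figure D3:**
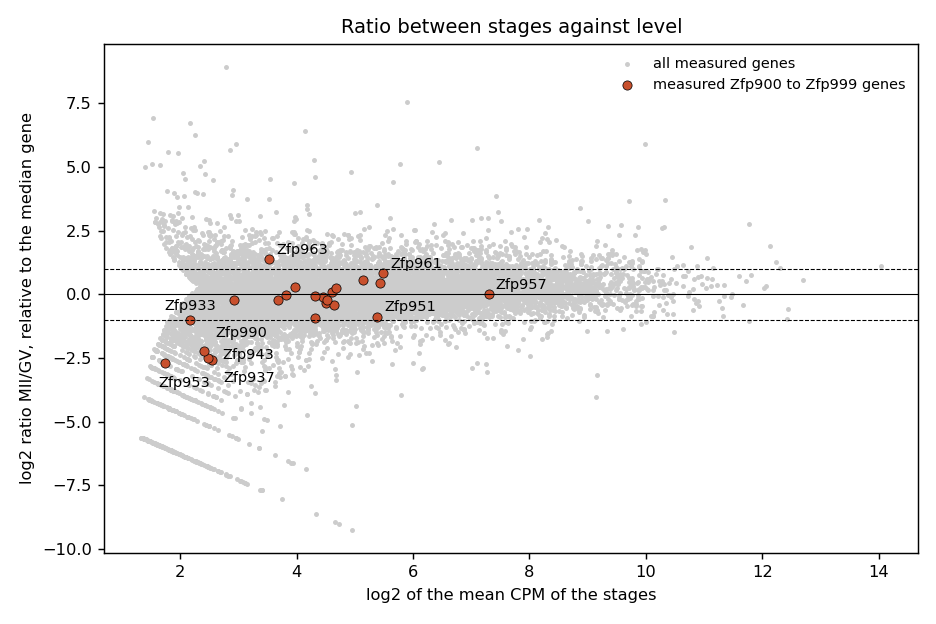
Log2 ratio MII/GV relative to the median gene (vertical axis) against log2 of the mean CPM of the stages (horizontal axis) for 10410 measured genes in grey and the 23 measured Zfp900 to Zfp999 genes in red, with dashed lines at a 2-fold difference. The 5 genes below the lower line have low levels, and the abundant Zfp957, Zfp961 and Zfp951 lie between the lines.

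Zfp937, a chromosome 2 gene with 14 fingers that lies apart from the cluster there, had 446 counts in GV and 8 in MII, or 10.4 CPM (95% exact Poisson interval 9.42 to 11.4) and 1.35 CPM (0.58 to 2.65). Its level was 1.65, 6.33 and 30.2 CPM in GV and 0, 0.82 and 3.92 CPM in MII, and the GV oocytes lay above the highest MII oocyte except GV6 and GV7, which were inside the MII range. The log2 ratio was −2.57 with a spread of 1.36. Zfp943, of the chromosome 17 cluster, had 419 counts in GV oocytes and 8 counts in MII oocytes, at 1.28, 7.02 and 29.4 CPM in GV and 0, 0.78 and 7.46 CPM in MII. GV2, GV4 and GV6 lay above the highest MII oocyte. Its ratio was −2.48 with a spread of 1.61. Both genes stayed more than 2-fold lower when compared with GV1 to GV6 alone (−2.86 for Zfp937 and −2.75 for Zfp943) and against GV7 to GV9 alone (−1.43 and −1.49). MII4 held 5 of the 8 MII counts of Zfp937 and MII1 held 4 of those of Zfp943, and the ratios were −3.53 for Zfp937 without MII4 and −3.23 for Zfp943 without MII1. Windows shared with other genes made up 31.5% of Zfp937, mostly with Zfp442, and 3.97% of Zfp943.

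For the other 3 lower genes the difference depended on the set of GV oocytes. Zfp953, a gene with 8 fingers on chromosome 13, had 5.63 to 15.4 CPM in GV1 to GV5, 0.41 CPM in GV6 and 0 to 0.26 CPM in GV7 to GV9. In MII it was at 0 in 4 oocytes and reached 2.20 CPM. Its ratio was −2.71 with a spread of 1.86, −3.15 against GV1 to GV6 alone and 2.67 against GV7 to GV9 alone, where 1 count was found in all 3 oocytes. Zfp990, of the chromosome 4 cluster, showed the opposite order of the GV oocytes. It was at 0 in 5 of GV1 to GV6 and at 0.94 CPM in GV2, and at 8.93, 53.7 and 48.9 CPM in GV7, GV8 and GV9. In MII it was at 0 in 4 oocytes, at 2.35 CPM in MII2 and at 7.68 CPM in MII5. Summed over a stage it was 9.15 CPM (8.27 to 10.1) in GV and 1.52 CPM (0.69 to 2.88) in MII. Its ratio of −2.23 had a spread of 2.86, was −1.38 without GV8 and −3.49 without MII5, and turned to 3.77 against GV1 to GV6 alone. Zfp933, also of chromosome 4, had 0 to 7.49 CPM in GV1 to GV6, 11.6 to 15.6 CPM in GV7 to GV9 and 0 to 5.49 CPM in MII. Its ratio was −1.02 with a spread of 1.73 and −0.30 against GV1 to GV6 alone. Zfp960, of chromosome 17, had the sixth lowest ratio, −0.91 with a spread of 1.90, and 83.3% of its windows also occur in Zfp97.

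The single gene at least 2-fold higher in MII was Zfp963, a chromosome 8 gene with 7 fingers. It had 1.69, 3.52 and 17.2 CPM in GV and 3.92, 19.6 and 30.7 CPM in MII. GV1, GV5 and GV6, at 12.9 to 17.2 CPM, and GV7, at 5.10 CPM, lay within the MII range, and the other GV oocytes were below the lowest MII oocyte. Summed over a stage it was 7.34 CPM (6.55 to 8.20) in GV and 15.7 CPM (12.6 to 19.2) in MII. The log2 ratio was 1.38 with a spread of 1.54, and stayed between 1.14 and 1.75 when any oocyte was left out. It was 1.11 against GV1 to GV6 alone and 2.40 against GV7 to GV9 alone. Its exons share 40.8% of their bases with Gm20422, a gene annotated on the same strand, and reads in that stretch belong to both annotations. Without GV4 or without MII4, 2 members were at least 2-fold higher, the added one being Zfp961, whose ratio reached 1.11. Zfp984 (0.29, spread 1.86) and Zfp952 (0.26, spread 1.30) had small positive ratios that were lower than 0 on the scale of full totals.

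Differences of this size also stood between the 2 sets of GV files. Between GV1 to GV6 and GV7 to GV9, 27 of the genes were measured, with 8 at least 2-fold lower in GV7 to GV9 against 20.2% of 10856 genes, and 8 at least 2-fold higher against 18.1%. Ranges did not overlap for 1 lower gene, Zfp953, against 5.99% of genes, and for 4 higher genes, Zfp957, Zfp990, Zfp981 and Zfp933, against 9.29%. The cluster on chromosome 4, which is known for genes whose deletion releases endogenous retroviruses in embryonic stem cells, held 5 of the 8 higher genes. It has 16 listed genes, of which 8 were measured between the sets. Zfp990 (log2 ratio 8.09), Zfp981 (3.23), Zfp984 (2.09), Zfp933 (1.97) and Zfp982 (1.91) were higher in GV7 to GV9, Zfp979 was lower (−1.35), and Zfp978 (0.12) and Zfp980 (−0.60) were within 2-fold. The ratio of Zfp990 rests on 0.12 CPM in GV1 to GV6. Windows found in other genes made up 27.0% of Zfp990, 38.7% of Zfp981, 57.4% of Zfp984, 1.86% of Zfp933 and 11.5% of Zfp982. The summed level of the cluster was 50.0 to 195 CPM in GV1 to GV6 and 119.9 to 297 CPM in GV7 to GV9, ranges that overlapped, and 67.9 to 181 CPM in MII. Between stages the sum was 143 CPM in GV and 119.9 CPM in MII, a ratio of 0.03. Zfp600, a gene of chromosome 4 outside the number range, had a ratio between the sets of 2.40. Of the transcript windows of Zfp981 28.6%, and of those of Zfp978 54.5%, also occur in Zfp600, so these genes may share reads. Cumulus and granulosa markers summed to 103 to 345 CPM in GV1 to GV6 and 134 to 147 CPM in GV7 to GV9. Of the 6 such markers measured between the sets, 5 were at least 2-fold lower in GV7 to GV9, with a median ratio of −2.66. Pooled over a set, Inha had 50.0 CPM in GV1 to GV6 and 12.1 CPM in GV7 to GV9, and Amh 11.5 and 0 CPM. Nr5a2, which holds much of the sum, went the other way, at 74.7 and 117 CPM. The part of other cells in the difference was not tested. The meaning of the headers is unknown here.

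**Figure D4:**
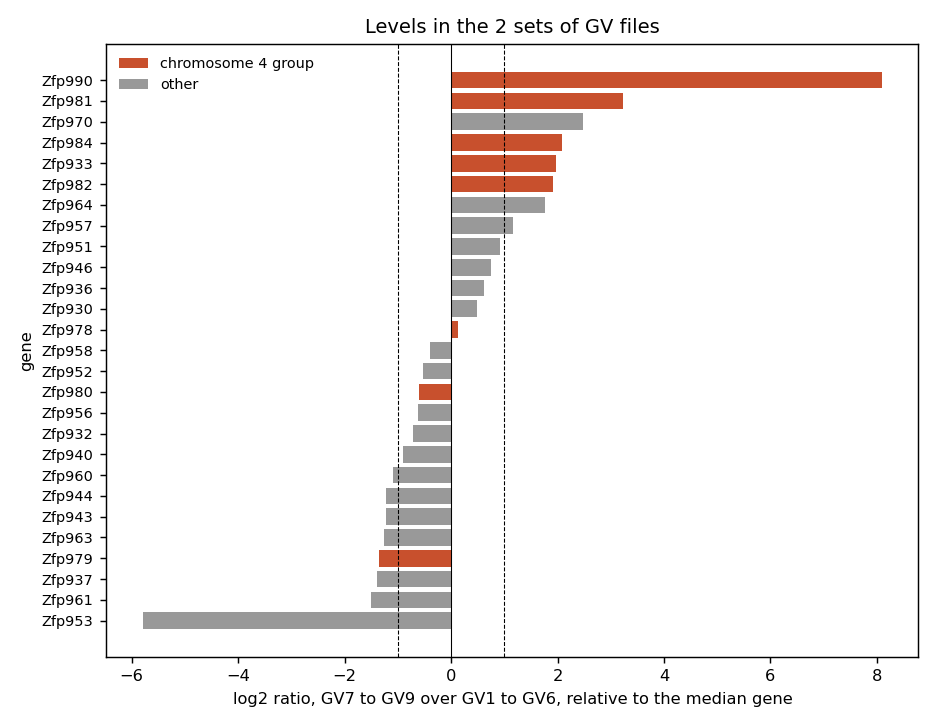
Log2 ratio of GV7 to GV9 over GV1 to GV6, relative to the median gene, for the 27 genes measured between the 2 sets of GV files, with the chromosome 4 cluster in red and other genes in grey and dashed lines at a 2-fold difference. Of the 8 bars past the upper line 5 belong to the chromosome 4 cluster, and Zfp953 is the lowest.

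The cluster of 10 genes on chromosome 2 was almost silent in the files. It summed to 6.88 CPM in GV and 1.85 CPM in MII. The sum was 0.70, 5.31 and 19.0 CPM in GV and 0, 0.78 and 6.91 CPM in MII, with overlapping ranges. Only Zfp931 and Zfp972 were detected in MII, with 10 counts and 1 count. Zfp970 had 120 counts in GV, 2.79 CPM, and 0 in MII. Pooled over a stage it was at least 5.52-fold lower in CPM, against a limit of 3 counts over the 6 MII oocytes. Its GV counts came from 6 of the 9 oocytes, with 77 of them in GV7 to GV9. The other 7 genes had 1 to 38 counts in GV. Outside this cluster, Zfp954 had 71 counts in 4 GV oocytes, 45 of them in GV6, and none in MII eggs. Pooled over a stage it was at least 3.27-fold lower on the CPM scale. The bounds for Zfp970 and Zfp954 leave out the spread between oocytes, and some GV oocytes had 0 counts of them, as the MII oocytes did. Zfp941, Zfp991 and Zfp995 also had 0 counts in MII. Of the 31 GV counts of Zfp941, 29 came from GV6. For genes with as few GV counts as Zfp991 (12) and Zfp995 (1), a lower level in MII and the lower depth of the MII files cannot be told apart.

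The 10 genes of the chromosome 17 cluster summed to 32.5 CPM in GV and 17.2 CPM in MII, with 11.7 to 73.4 CPM among GV and 3.14 to 41.0 CPM among MII oocytes. Zfp944 (ratio −0.21) and Zfp943 were its measured genes. The 3 genes of chromosome 8, Zfp930, Zfp963 and Zfp964, summed to 36.6 CPM in GV and 35.7 CPM in MII. Among 4 genes of a chromosome 7 cluster, Zfp936 was measured (−0.06, spread 1.19), and in a pair on the same chromosome Zfp940 was (−0.20, spread 1.88). The 16 genes that lie alone carried most of the family's counts, 445 CPM in GV and 348 CPM in MII, with Zfp957 among them. Zfp956, which has 6 fingers and no KRAB-like stretch, had a ratio of −0.41 with a spread of 1.46.

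Counts were lower where a transcript shared more of its sequence with other genes. In 23 genes under 10% of the 50-base windows occurred in another gene, and these had a median of 236 counts over all oocytes, with 11 genes measured. In 19 genes with 10% to under 50% the median was 87 counts and 7 were measured. In 20 genes with 50% or more it was 32 counts and 5 were measured. Zfp965, Zfp967, Zfp968 and Zfp969 of chromosome 2 shared every window with another gene and had 1 to 9 counts each. The part that the assignment of shared reads has in these counts was not tested. Among the 11 measured genes under 10%, 3 were at least 2-fold lower in MII and 0 higher, with a median of −0.34. Among the 12 with at least 10%, 2 were lower and 1 was higher, with a median of −0.04.

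**Figure D5:**
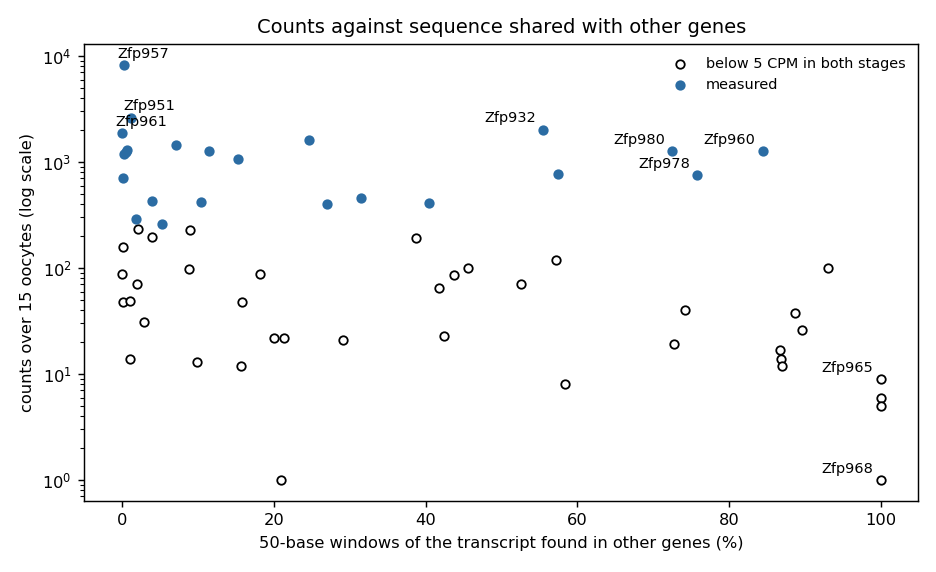
Counts summed over 15 oocytes (log scale) against the share of 50-base transcript windows found in other genes, for the 62 listed genes, with filled points for measured genes and open points for genes below 5 CPM in both stages. All 4 genes at 100% lie at 1 to 9 counts, and Zfp932, Zfp980, Zfp978 and Zfp960 have high counts at 50% or more.

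The partners through which KRAB zinc fingers are known to act were nearly all measured. Of 30 genes of the co-repressor pathway, 29 were measured, with a median ratio of 0.00 and a spread of 0.36. At 2-fold, 4 were lower in MII (15.8% of all measured genes) and 1 was higher (12.9%). Trim28, the protein that KRAB domains bind, had 68.5, 132 and 207 CPM in GV and 44.8, 135 and 302 CPM in MII, with a ratio of 0.28 and a spread of 1.32. Its relative Trim24 had the highest CPM of that group (0.27, spread 0.87), where groups are led by the mean CPM of the stages, with no division by length. Trim33, another relative, had 56.4 to 232 CPM in GV and 14.1 to 50.1 CPM in MII, so that every MII oocyte lay below every GV oocyte, and its ratio was −1.59 with a spread of 0.79. Setdb1, which methylates histones at the silenced site, was the higher gene, at 184, 348 and 577 CPM in GV and 224, 759 and 826 CPM in MII. Its ratio of 1.10 had a spread of 0.99 and its ranges overlapped. The count of higher genes was 0 without GV1 or without MII4, 2 without MII5 or without MII6, and 5 against GV7 to GV9 alone. Atf7ip, the partner of SETDB1, had a ratio of −0.50 (spread 0.96), and its mean CPM of the stages was above that of Setdb1, although in MII Setdb1 stood higher (640 against 407 CPM). Cbx5, an HP1 protein, had a ratio of 0.66 (spread 0.88), and Gatad2b, the NuRD subunit with the highest CPM, −0.05 (spread 0.86). Mphosph8 of the HUSH complex, which silences long repeats, had 0.86 (spread 1.57), and Atrx, a chromatin remodeller, 0.14 (spread 1.85). The lowest ratio of the list was that of the NuRD subunit Mta2, −3.84 with a spread of 1.46. It had 316 counts in GV and 2 in MII, 0.34 CPM with a 95% exact Poisson interval of 0.041 to 1.22 CPM. GV1 to GV6 held 302 of the GV counts. Mta2 had 0.55 to 1.79 CPM in GV7 to GV9 and 0 to 1.73 CPM in MII, so the ranges overlapped. Morc3 (−1.25) and Resf1 (−1.46) were the other lower genes. Mta2 and Morc3 were measured through GV alone and could not be called higher.

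KRAB zinc fingers with a known target are set beside the family for scale. Of 8 such genes 7 are listed in the files. Zfp57, which guards imprinted methylation, stood at 2222, 3066 and 5768 CPM in GV and 3654, 5356 and 11106 CPM in MII, with overlapping ranges, a ratio of 1.28 and a spread of 0.90. In each stage Zfp57 had more counts than all 62 genes together. Zfp568, which represses a placental promoter of Igf2, had 81.0 CPM in GV and 40.2 CPM in MII (ratio −0.72, spread 0.98), and Zfp445, another guardian of imprints, 24.5 CPM and 18.0 CPM (−0.15, spread 1.07). The 290 other genes with the symbol Zfp and a number summed to 14263 CPM in GV and 16573 CPM in MII, with a ratio of 0.50 and a spread of 0.35. Zfp57 alone carried most of that difference: without it they summed to 11058 CPM and 10189 CPM, with a ratio of 0.17 and a spread of 0.37, beside −0.06 and 0.51 for Zfp900 to Zfp999.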

How the data were processed

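Single GV oocytes (9) and MII oocytes (6) were assigned by the labelled developmental stage. The authors deposited raw counts for Ensembl genes, a file for each oocyte; whole values with unequal totals show that they are not normalized. Reads were handled with cutadapt 4.0 and STAR 2.7.10a on GRCm39, per the submitters' processing notes. Not given in the sources used here are the counter, its annotation, strand use, rule for multi-mapping reads and any molecular identifiers. Genes missing from a file count as 0.

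Symbols, transcripts and coding sequences came from GENCODE M21 (GRCm38), and 28444 of 28785 IDs had a symbol. CPM used totals without ENSMUSG00000119584, which the deposited counts include and whose share differed widely between oocytes. Counts were summed per stage and 0.5 count was added. Ratios are relative to the median measured gene (5 CPM or more in the higher stage), and lower or higher means at least 2-fold. Calculations were checked on simulated data. Of 51 pairs of oocytes of 1 stage none agreed within sampling noise (lowest chi-square per degree of freedom 7.26). Neighbouring genes lie within 2 Mb. Fingers were matched by the spacing of cysteines and histidines, and KRAB-like stretches within the first 150 residues by a pattern chosen with the sequences at hand. The members, lists and tests were chosen with earlier results of these data known. Genes described singly are the 8 with the highest CPM per kilobase, and the 6 lowest and 6 highest ratios among measured members with at least 20 counts; the others are named by cluster, detection or GV set after their values were seen. In the pathway these are the gene of each group with the highest CPM and the extremes. Alternatives were other scalings (edgeR 4.0.16, DESeq2 1.42.0), filters, GV sets and leaving out each oocyte. Python 3.11.15, pandas 2.3.3, scipy 1.17.1, R 4.3.3 and Biopython 1.88 were used.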

Additional observations from a re-analysis of the deposited data

How the results depend on the processing

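No paired analysis was possible because the labels name no mouse, the replicate numbers only name oocytes, and the results come from no test. The planned split of members by protein identity was not run, and members with under 10% of transcript windows in other genes were used in its place, an alternative chosen after seeing the data, as were the additions of Zfp955a, Zfp955b and Zfp939 (pseudogene in GENCODE M21) the summed level without Zfp957 and that of the other Zfp genes without Zfp57. On full totals the median of members was −1.15 with 14 lower and 0 higher, the summed level −1.02, and the pathway median −0.95 with 14 lower and 0 higher. In CPM without the feature, not relative to the median gene, and with no filter beyond 1 count, 0 pathway genes were higher. The median gene stood at −0.087 under TMM and at −0.035 under the median of ratios. With a filter of 20 CPM, 1 member was lower and 0 higher, 2 pathway genes were lower and 0 higher, and between the GV sets 3 members were lower and 4 higher. With no filter beyond 1 count, 19 members were lower and 5 higher. All 62 listed members enter there, 12 of them with 0 counts in MII. Shares of all genes under the same setting are not given for the alternatives. Their counts therefore show how the calls move and are no result about the members or the pathway. With the mean of CPM over oocytes, and against GV1 to GV6 alone, 2 members were higher. Against GV7 to GV9 alone 4 members and 5 pathway genes were higher. At a fold of 4, 0 members were higher. With under 10% shared windows 3 members were lower and 0 higher. Without thinning a GV oocyte showed a median of 48 members. Zfp990 turned to 3.77 against GV1 to GV6 alone and Zfp953 to 2.67 against GV7 to GV9 alone. The cause of these shifts was not tested, except that filters and GV sets change which genes or oocytes enter. Leaving out each oocyte gave a median of members of −0.31 to −0.02, 4 to 7 lower and 1 to 2 higher, a summed level of −0.14 to 0.03, a pathway median of −0.07 to 0.04 with 3 to 5 lower and 0 to 2 higher, and 6 to 9 lower and 7 to 10 higher between the GV sets. Of the alternative values of the 17 genes described singly, 44 of 391 changed sign, 7 of them on full totals, and all but 2 of the 44 were of genes under 2-fold; the exceptions are the values of Zfp990 and Zfp953 above. Depth limits the 39 members under 5 CPM, and stage and kind of file cannot be told apart.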
